A study of Owenia fusiformis with 26 samples.

Results

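POU4 and a second homeobox gene, called here the Nkx2.2-like gene, are 2 of the 26966 genes measured in a developmental time course of the annelid Owenia fusiformis, a worm whose embryo cleaves in a spiral pattern and grows into a swimming mitraria larva. Both were picked by gene identifier: OFUSG03481, named POU4 in the study's list of candidate genes, with chicken Brn3 as its best protein match, and OFUSG12225, which has no name of its own and whose best match is zebrafish Nkx2.2a. They were chosen with their expression values known, so their levels are given as a description and without a test. The study asked how ERK1/2 signalling sets up the body axes through the 4d cell, and used this time course to place genes in development. The study took the time course from an already available dataset, and describes in vitro fertilisation of wild-caught adults for its own embryos. The time course covers whole untreated embryos and larvae, with 2 RNA-seq libraries at each of 12 stages. These are oocytes and zygotes, embryos with 2, 4 and 8 cells, cleaving embryos at 3 and 4 h post fertilisation (hpf), blastulae (5 hpf), gastrulae (9 hpf), embryos in elongation (13 hpf), early larvae (18 hpf) and mature larvae (27 hpf). The expression columns for 3 and 4 hpf are headed by cell number (16 and 32 cells) and were matched to these times from the study's text. The study calls the replicates biological, and the labels number them without naming separate cultures or parents, so p-values measure the spread between these libraries.

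POU4 proteins (Brn3 in vertebrates, unc-86 in Caenorhabditis elegans) carry a POU domain joined to a homeodomain, and in many animals they act late in the making of sensory neurons and keep their identity. Nkx2.2 belongs to the NK2 class of homeobox genes. In vertebrates it patterns the ventral neural tube, and its relative in Drosophila, vnd, patterns the nerve cord close to the midline. Nkx2.2 also serves endocrine cells of the vertebrate gut and pancreas, so neither name places the annelid genes in a particular cell. By in situ hybridisation the study detected POU4 in cells of the apical ectoderm. The values here come from whole embryos, in which fewer cells expressing a gene and less RNA per cell cannot be told apart. All levels are the authors' normalised expression, which is not divided by transcript length, so the levels of one gene are compared between stages and never with those of the other gene.

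Both genes were at or near 0 from the oocyte to 3 hpf, were far higher at 5 hpf than at 4 hpf, and then parted. POU4 had overlapping libraries from 9 to 18 hpf, while the Nkx2.2-like gene stood highest at 9 hpf and was lower at each later stage up to 18 hpf. One read was worth an estimated 0.956 to 1.61 units of normalised expression, depending on the library. A value of 0 in a library up to 3 hpf therefore allows a level of 3.48 to 4.84 units (3 reads, counting error only).

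POU4 was at 0 in 10 of the 12 libraries up to 3 hpf. It had 2.44 units in zygote replicate 2 and 1.37 units in 3 hpf replicate 2, which is about 2 and 1 reads. At 4 hpf both libraries held it, at 15.4 and 16.5 units, an estimated 12.1 and 15.8 reads. These 2 libraries differed little from each other (15.96 ± 0.72, SD, n = 2) and both lay above both 3 hpf libraries, as 12.6% of all tested genes did. At 4 hpf POU4 reached for the first time 10 units or more in both libraries, as did 440 of the 23934 tested genes (1.84%).

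From 5 hpf on POU4 was well above its level at 4 hpf in every library. It had 693 and 470 units at 5 hpf, 1074 and 631 units at 9 hpf, 1212 and 810 units at 13 hpf, 946 and 1187 units at 18 hpf, and 669 and 627 units at 27 hpf. The means were 581 ± 158, 852 ± 313, 1011 ± 285, 1066 ± 170 and 648 ± 29.5 (SD, n = 2 each). In the order of means, 18 hpf came first, followed by 13, 9, 27 and 5 hpf, and the libraries of every neighbouring pair in that order overlapped. The first clear step down the order was that between 5 and 4 hpf. Replicate 1 was above replicate 2 at 5, 9 and 13 hpf, and below it at 18 hpf. At 27 hpf both POU4 libraries lay below both 18 hpf libraries, as was so for 24% of tested genes in that comparison.

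**Figure D1:**
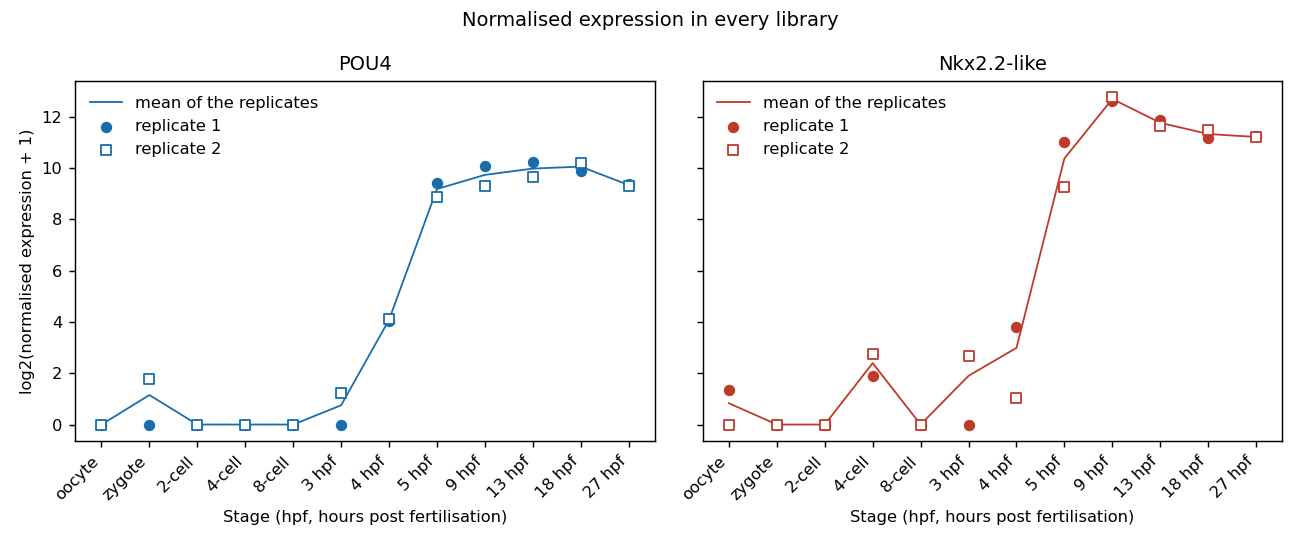
Normalised expression of POU4 (left) and the Nkx2.2-like gene (right) as log2(value + 1) at 12 stages; filled circles are replicate 1, open squares replicate 2, and lines join the stage means. Both genes lie near 0 up to 3 hpf and above 8 on this log2 axis in every library from 5 hpf on; POU4 already stands at 15.4 and 16.5 units at 4 hpf, where the Nkx2.2-like libraries disagree (12.9 and 1.04 units).

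The Nkx2.2-like gene has 3 transcripts in the annotation, which were summed. It was at 0 in 8 of the 12 libraries up to 3 hpf, and its values in the other 4 were 1.56 units (oocyte replicate 1), 2.73 and 5.81 units (4-cell stage) and 5.46 units (3 hpf replicate 2), at most about 5 reads. At 4 hpf replicate 1 had 12.9 units, about 10.0 reads, and replicate 2 had 1.04 units, about 1 read, so the gene was not clearly on at this stage. Both libraries passed 10 units for the first time at 5 hpf, as for 713 tested genes (2.98%).

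At 5 hpf the Nkx2.2-like gene had 2047 units in replicate 1 and 610 units in replicate 2. It then had 6354 and 6933 units at 9 hpf, 3755 and 3227 units at 13 hpf, 2292 and 2862 units at 18 hpf, and 2411 and 2346 units at 27 hpf. The means were 1329 ± 1016, 6644 ± 409, 3491 ± 373, 2577 ± 403 and 2378 ± 46.0 (SD, n = 2 each). The libraries at 9 hpf were apart from those of every other stage, and those at 13 hpf from those at 18 hpf. Only the neighbours 18 and 27 hpf overlapped among the stages from 5 hpf on. The wide gap at 5 hpf was between replicates of one stage, and both libraries there still lay above both 4 hpf libraries and below both 9 hpf libraries.

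Set against its own highest mean, that of early larvae, POU4 reached 54.5% in blastulae, 79.9% in gastrulae, 94.8% during elongation and 60.8% in mature larvae. The Nkx2.2-like gene reached 20.0% in blastulae, and after its highest mean in gastrulae it was at 52.5% during elongation, 38.8% in early larvae and 35.8% in mature larvae. By these means POU4 had covered more of its range at 5 hpf, and the Nkx2.2-like gene left its highest level earlier. As a z-score over the 12 stage means, POU4 was at 0.52, 1.13, 1.49, 1.61 and 0.67 from 5 to 27 hpf. The z-score of the Nkx2.2-like gene was -0.02, 2.53, 1.02, 0.58 and 0.48. On the log2 scale the 5 hpf z-scores were 1.00 for POU4 and 0.88 for the Nkx2.2-like gene.

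**Figure D2:**
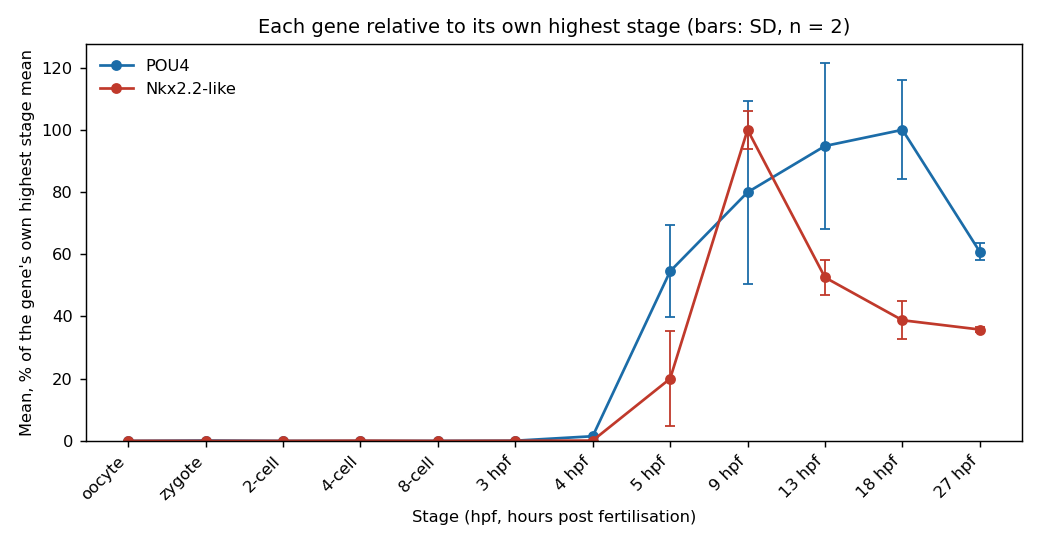
Stage means of POU4 and the Nkx2.2-like gene as a percentage of the highest stage mean of the same gene; bars are the SD of 2 libraries on the same scale. POU4 is at 94.8% at 13 hpf and 100% at 18 hpf, whereas the Nkx2.2-like gene peaks at 9 hpf and is at 35.8% at 27 hpf.

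The 3 transcripts of the Nkx2.2-like gene did not keep the same proportions through development. Transcript 3 made up a large part of the gene's summed value at 5 hpf, less at 9 hpf, and almost none at 13 and 18 hpf. Transcript 1 was the major form at every stage from 5 hpf on. These shares were examined after the values had been seen, are not corrected for transcript length, and rest on an estimated split of reads that the transcripts have in common.

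Transcript 3 had 853 and 276 units at 5 hpf, 1148 and 2255 units at 9 hpf, 20.5 and 98.4 units at 13 hpf, 0 and 1.14 units at 18 hpf, and 158 and 78.6 units at 27 hpf. Its share of the gene's value was 41.7% and 45.1% at 5 hpf, 18.1% and 32.5% at 9 hpf, 0.546% and 3.05% at 13 hpf, 0% and 0.0399% at 18 hpf, and 6.56% and 3.35% at 27 hpf. In every one of these steps the libraries of the later and the earlier stage were apart: the share was lower at 9, 13 and 18 hpf than at the stage before, and higher at 27 hpf than at 18 hpf. A transcript share lower by at least 20 percentage points with libraries apart was found at 13 hpf against 9 hpf in 159 of 2331 genes with several transcripts (6.82%), so such shifts were not particular to the Nkx2.2-like gene. The falls of transcript 3 at 9 and 18 hpf were under 20 points. How many genes have shares apart by any amount was not counted for any step.

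Transcript 1 had 1170 and 322 units at 5 hpf, 4953 and 3740 units at 9 hpf, 3021 and 2254 units at 13 hpf, 2176 and 2000 units at 18 hpf, and 1840 and 1563 units at 27 hpf. It followed the gene as a whole, with its highest libraries at 9 hpf. Transcript 2 had 23.97 and 12.9 units at 5 hpf, 253 and 938 units at 9 hpf, 714 and 874 units at 13 hpf, 116 and 861 units at 18 hpf, and 412 and 704 units at 27 hpf. From 9 hpf on its libraries overlapped between neighbouring stages, and at 18 hpf its replicates stood far apart, with 5.06% and 30.1% of the gene's value. At 13 hpf against 9 hpf, where the gene was lower in both libraries, transcript 1 averaged 2637 against 4347 units and transcript 3 averaged 59.5 against 1701 units, while transcript 2 averaged 794 against 596 units. POU4 has a single transcript in the table.

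**Figure D3:**
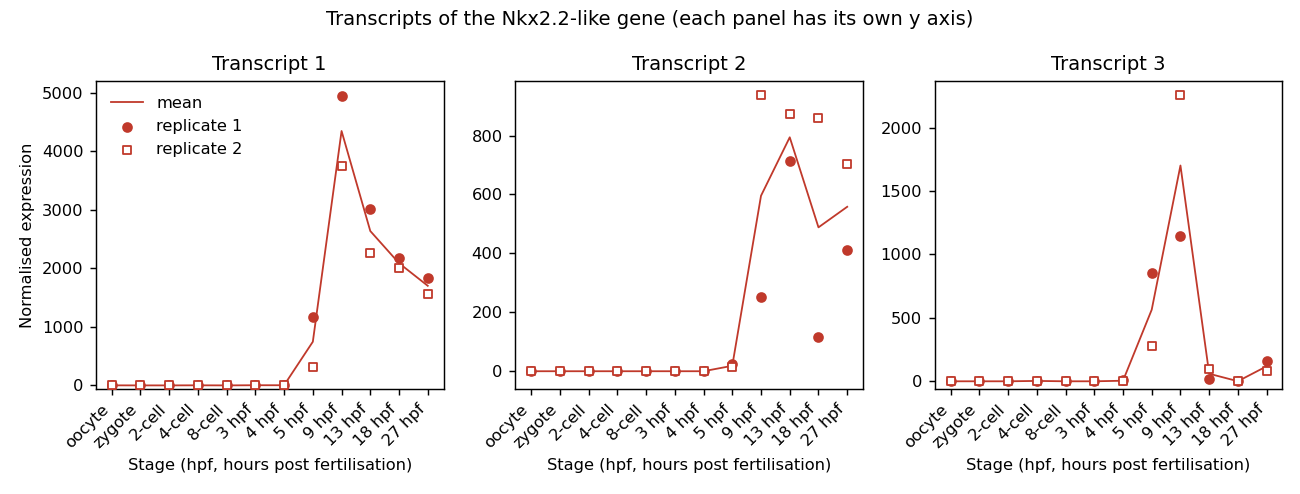
Normalised expression of the 3 transcripts of the Nkx2.2-like gene at 12 stages; circles are replicate 1, squares replicate 2, lines the means, and each panel has its own y axis. Transcripts 1 and 3 have their highest means at 9 hpf (4347 and 1701 units), and transcript 3 is at 0 and 1.14 units at 18 hpf.

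The differences between neighbouring stages were taken from a linear model of log2(value + 1) over all 24 libraries (limma), with the later stage minus the earlier one. Each gene has a single fitted SD over all stages, so its SE is the same at every step and does not measure the spread of the compared stages alone. At 5 hpf against 4 hpf POU4 was higher by 5.08 ± 0.63 and the Nkx2.2-like gene by 7.72 ± 0.91 on the log2 scale (SE). Only six3/6, among the 23934 genes tested, had a larger fitted difference upwards than the Nkx2.2-like gene at this step, and 32 genes had a larger one than POU4. The median over all genes was 0.01. At an adjusted p under 0.05, 1.19% of genes were called higher and 0.0794% lower. Since the Nkx2.2-like gene was near the floor at 4 hpf, its difference leaned on the replicates there: it was 9.10 without 4 hpf replicate 1 and 6.34 without 4 hpf replicate 2.

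Replicate 1 was the higher one at 5 hpf for both genes, by 0.56 (POU4) and 1.74 (Nkx2.2-like gene) on the log2 scale. This ran through many genes at that stage: of the 286 genes called higher at 5 hpf against 4 hpf, 259 (90.6%) were above replicate 2 in replicate 1, with a median difference of 0.72, against 50.0% and a median of 0 over all genes tested. The labels give no collection time beyond the stage, and the part of this gap in the levels at 5 hpf was not tested. Without 5 hpf replicate 1 the rise was 4.80 for POU4 and 6.85 for the Nkx2.2-like gene.

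At 9 hpf against 5 hpf the difference was small in POU4 and large in the Nkx2.2-like gene. POU4 had a difference of 0.53 ± 0.63, within its error and with overlapping libraries (1074 and 631 units at 9 hpf, against 693 and 470 units at 5 hpf). The Nkx2.2-like gene was higher by 2.57 ± 0.91, with libraries apart. Leaving out single libraries moved the POU4 difference between 0.14 (without 9 hpf replicate 1) and 0.91 (without 9 hpf replicate 2), and with the 5 hpf libraries left out in turn it was 0.81 (replicate 1) and 0.25 (replicate 2). The difference of the Nkx2.2-like gene was 3.44 without 5 hpf replicate 1 and 1.70 without 5 hpf replicate 2. The median over all genes was 0.40 as deposited and 0.13 after trimmed mean of M-values (TMM) scaling, a shift of -0.27, and with that scaling the differences were 0.24 for POU4 and 2.28 for the Nkx2.2-like gene. In this comparison both libraries were apart and higher in 39.9% of genes, and 18% of genes were called higher and 11.5% lower. Of the genes called, 61.0% were higher as deposited and 48.3% after TMM scaling.

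After 9 hpf the steps were smaller. At 13 hpf against 9 hpf POU4 differed by 0.27 ± 0.63 with overlapping libraries, and the Nkx2.2-like gene by -0.93 ± 0.91, with both libraries lower (3755 and 3227 units at 13 hpf, against 6354 and 6933 units at 9 hpf). Both libraries were lower in 21.1% of all tested genes at that step. The SE of 0.91 is drawn from all stages. In the Nkx2.2-like gene the SD was 6.16% of the mean at 9 hpf and 10.7% at 13 hpf, against 120% at 4 hpf and 76.5% at 5 hpf. At 18 hpf against 13 hpf the differences were 0.10 ± 0.63 for POU4 and -0.44 ± 0.91 for the Nkx2.2-like gene, where the Nkx2.2-like gene again had both libraries lower, as in 22.1% of genes. At 27 hpf against 18 hpf they were -0.71 ± 0.63 for POU4 and -0.11 ± 0.91 for the Nkx2.2-like gene. Neighbouring comparisons share the libraries of the stage between them, so they are not independent of each other.

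**Figure D4:**
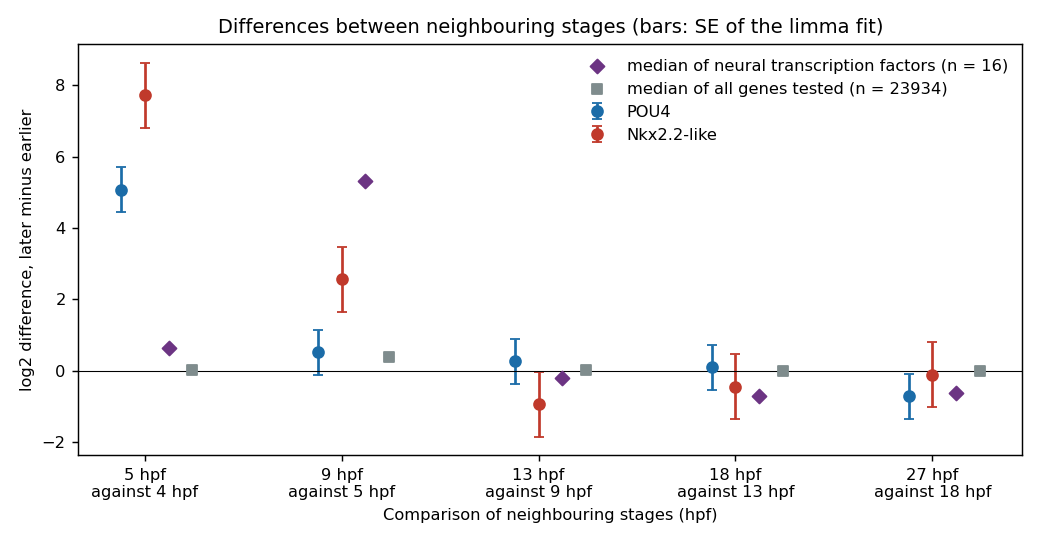
Fitted log2 differences between neighbouring stages, later minus earlier, for POU4 and the Nkx2.2-like gene (bars: SE of the limma fit), with the median of 16 other neural transcription factors and of all 23934 genes tested. The step of both genes at 5 hpf against 4 hpf (5.08 and 7.72) is at an earlier sampled comparison than that of the median neural factor, which is 0.64 there and 5.32 at 9 hpf against 5 hpf. No stage between 5 and 9 hpf was sampled.

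The other transcription factors with a known part in neural development were 16 genes named by their best protein match or in the study's candidate list. They were drawn from the study's tables of genes that responded to drug treatment in other libraries, so they are no even sample of the neural factors of this worm. In the study POU4 responded as well, to both drugs at the blastula stage and to the inhibitor of ERK1/2 activation in larvae. Most of the 16 were called at the next sampled step after that of POU4 and the Nkx2.2-like gene. No stage between 5 and 9 hpf was sampled, so the time of their rise within that gap is unknown. The Foxb1-like gene was earlier than both: its mean was 7.88 units at the 8-cell stage, 447 units at 3 hpf and 7620 units at 4 hpf. It was highest at 5 hpf (16700 units), and no comparison of stages before 4 hpf was run that could have called its rise. At 5 hpf against 4 hpf, 2 of the 16 were called higher and 0 lower (background 1.19% and 0.0794%), with a median difference of 0.64. At 9 hpf against 5 hpf, 12 were called higher and 1 lower (background 18% and 11.5%), with a median of 5.32. These counts were 11 and 1 after TMM scaling.

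The 2 factors called higher at 5 hpf were the Lhx3-like and the amos-like gene. Lhx3 is a LIM homeobox gene of vertebrate motor neurons, and amos is a proneural bHLH gene of Drosophila olfactory sense organs. The Lhx3-like gene had 1419 and 617 units at 5 hpf, against 83.7 and 40.1 units at 4 hpf (log2 difference 3.99 ± 0.52, limma adjusted p = 0.000609). The amos-like gene had 70.9 and 30.1 units at 5 hpf, against 1.28 and 3.10 units at 4 hpf (3.95 ± 0.64, limma adjusted p = 0.00346). In both genes the libraries at 5 hpf lay well above those at 4 hpf, with replicate 1 the higher. Leaving out replicate 1 of either stage reduced the count to 1.

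At 9 hpf the largest rises among these factors were those of the Bsx-like gene and irxA. Bsx is a homeobox gene of the vertebrate and fly brain, and the iroquois gene irxA has its best match in Drosophila araucan, a prepattern gene for sense organs. The Bsx-like gene had 773 and 547 units at 9 hpf, against 7.29 and 0 units at 5 hpf (7.82 ± 1.01, limma adjusted p = 2.97e-05). irxA had 2939 and 2503 units at 9 hpf, against 7.31 and 20.4 units at 5 hpf (7.67 ± 1.95, limma adjusted p = 0.00709). POU3, the other POU-class gene of the list, had 936 and 835 units at 9 hpf, against 6.26 and 9.66 units at 5 hpf (6.65 ± 1.02, limma adjusted p = 0.000136). It was thus still near its floor when POU4 already had 693 and 470 units. The study places POU3 with genes of mesodermal derivatives, and the same values are counted again below among the mesodermal genes. The factor that was called lower was the Tbr1-like gene, a T-box gene named for neurons of the mammalian cortex, with 1733 and 1478 units at 9 hpf, against 2853 and 2422 units at 5 hpf (-0.72 ± 0.19, limma adjusted p = 0.0102). It was no longer called without 9 hpf replicate 2 or without 5 hpf replicate 1.

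After 9 hpf few of these factors were called, and those called were lower, although some were called higher in other fits. At 13 hpf against 9 hpf, 0 of the 16 were called higher and 3 lower (background 4.19% and 2.13%), among them the Foxb1-like gene, a forkhead gene, with 185 and 586 units at 13 hpf, against 7190 and 10228 units at 9 hpf (-4.70 ± 0.81, limma adjusted p = 0.00222), and the Hmx3-like gene b, an NK-class homeobox gene (-0.95 ± 0.25, limma adjusted p = 0.035). Leaving out 13 hpf replicate 1 reduced these calls to 0, and leaving out the other 13 hpf library or 9 hpf replicate 1 reduced them to 1. With a pseudocount of 10, 3 factors were called higher and 3 lower, and with only the libraries of these stages 2 were called higher and 1 lower. At 18 hpf against 13 hpf only the Foxb1-like gene was called, with 11.1 and 1.14 units at 18 hpf (-6.02 ± 0.81, limma adjusted p = 0.00078, background 1.08% lower), whereas a pseudocount of 10 and the fit of these stages alone each gave 1 higher and 3 lower. At 27 hpf against 18 hpf 2 were called lower and 0 higher (background 1.83% and 1.88%). The amos-like gene had 17.2 and 19.2 units at 27 hpf, against 187 and 142 units at 18 hpf (-3.10 ± 0.64, limma adjusted p = 0.0104), and the Hmx3-like gene b had 554 and 502 units, against 1727 and 1086 units (-1.37 ± 0.25, limma adjusted p = 0.00521). That count was 1 without either 27 hpf library and 0 without 18 hpf replicate 1.

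The stage of the highest mean was 9 hpf for 8 of the 16 factors, as for the Nkx2.2-like gene, and 18 hpf for 2 of them, the Scrt1-like gene b and the Six4-like gene, as for POU4. Over all genes tested the highest mean was at 9 hpf in 14.7% and at 18 hpf in 11.4%. Of the 16, 7 first reached 10 units in both libraries at 9 hpf (11.7% of all genes did so), 2 in blastulae, 1 at 4 hpf, 4 in oocytes (63.7% of all genes) and 2 in zygotes (2.51%). The 4 in oocytes include the Foxb1-like gene and the Hmx3-like gene a, whose means there were only 26.1 and 18.9 units. The Hmx3-like gene b and the Tbr1-like gene had 1126 and 2729 units in oocytes. The 2 in zygotes, the Lhx3-like and Gata2/3-like genes, had means of only 19.1 and 45.6 units there. Their highest means were 8163 and 2840 units at 9 hpf, so this first stage need not be that of the main rise. The one at 4 hpf, as POU4, was the Scrt1-like gene b, a zinc finger gene of the Scratch family, which had a mean of 395 units at 9 hpf, against 7.87 units at 5 hpf.

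**Figure D5:**
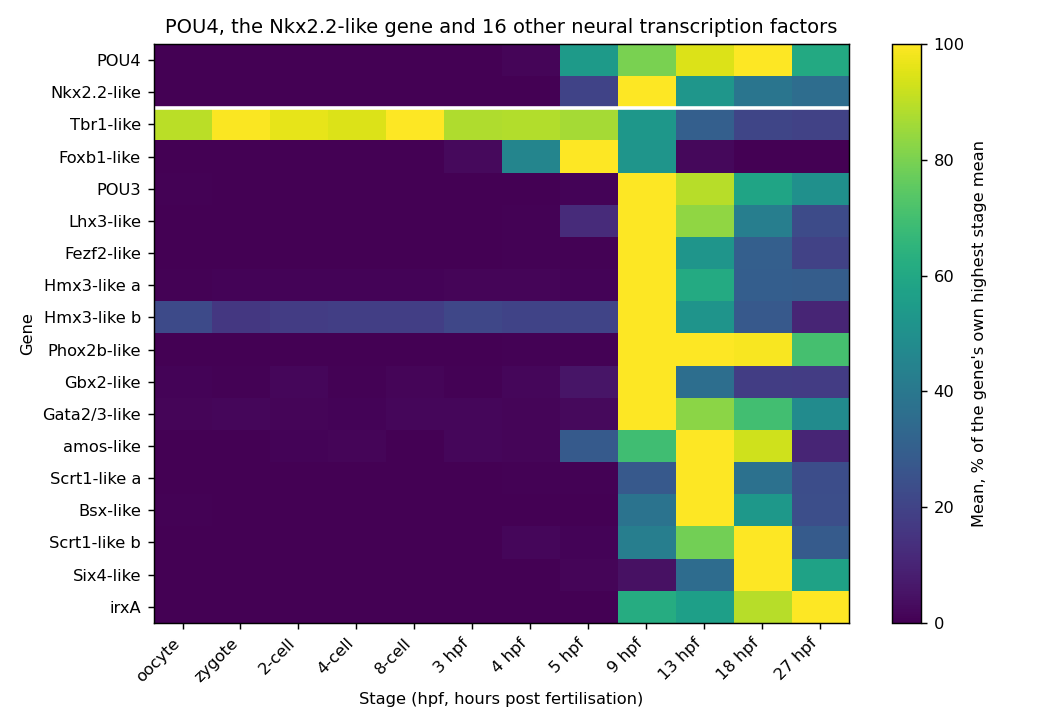
Stage means of POU4, the Nkx2.2-like gene and 16 other neural transcription factors, each as a percentage of its own highest stage mean (colour), with the 16 ordered by the stage of that highest mean. At 5 hpf POU4 is at 54.5% and the Nkx2.2-like gene at 20.0% of their highest means, and 8 of the 16 factors have theirs at 9 hpf.

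Among the 6 other NK-class homeobox genes of the study's tables, which include both Hmx3-like genes already counted above, 1 was called higher at 5 hpf against 4 hpf and 5 at 9 hpf against 5 hpf, with none called lower in either (background 1.19% and 18% higher). The gene called at 5 hpf was the slouch-like gene b, a relative of a Drosophila NK gene of muscle founder cells, with 22.9 and 43.0 units at 5 hpf, against 0 in both 4 hpf libraries (limma adjusted p = 0.000482). Its level at 5 hpf was low beside its own 981 ± 92.3 units at 27 hpf (SD, n = 2), where it had its highest mean. At 9 hpf the largest rises were those of the Hmx3-like gene a (2481 and 2611 units at 9 hpf, against 19.8 and 29.0 units at 5 hpf, 6.67 ± 0.62, limma adjusted p = 1.44e-06) and the slouch-like gene a (85.7 and 64.7 units, against 14.6 and 0 units, 4.26 ± 0.89, limma adjusted p = 0.00179). The Nkx3.2-like gene, whose vertebrate relative acts in skeletal and gut mesoderm, was called higher at the next step as well. It had 736 and 344 units at 13 hpf, against 13.1 and 8.35 units at 9 hpf (5.46 ± 0.63, limma adjusted p = 0.000114), at the step where the Nkx2.2-like gene was lower in both libraries. In limma, 0 of the 6 were called at 18 hpf against 13 hpf (0 higher and 1 lower at an unadjusted p under 0.05), and at 27 hpf only the Hmx3-like gene b was. The background was 1.56% higher and 1.08% lower at 18 hpf, and 1.88% and 1.83% at 27 hpf.

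The genes that carry out neuronal functions, 23 best matches to neuropeptides, transmitter enzymes and transporters, receptors, synaptic proteins and guidance cues, had most of their calls at 9 hpf. That step had the most calls over all genes as well. In limma, 0 of the 23 were called at 5 hpf against 4 hpf (background 1.19% higher and 0.0794% lower), with 3 higher and 1 lower at an unadjusted p under 0.05. At 9 hpf against 5 hpf 9 were called higher and 0 lower (background 18% and 11.5%), or 7 and 0 after TMM scaling. The largest rise was that of the FMRFamide receptor-like gene b (482 and 764 units at 9 hpf, against 8.35 and 6.44 units at 5 hpf, 6.19 ± 1.00, limma adjusted p = 0.000224), followed by the GLRA2-like gene, a glycine receptor match (25.0 and 104 units, against 4.17 and 1.08 units, 4.00 ± 1.13, limma adjusted p = 0.0134). At 13 hpf against 9 hpf 3 were called higher and 1 lower (background 4.19% and 2.13%). The acetylcholinesterase-like gene had 653 and 962 units at 13 hpf, against 112 and 261 units at 9 hpf (2.21 ± 0.55, limma adjusted p = 0.0245), and the N-cadherin-like gene, a cell adhesion gene, had 2784 and 3286 units, against 1140 and 1647 units (1.14 ± 0.27, limma adjusted p = 0.017). The one called lower was the GRM5-like gene, a glutamate receptor match, with 58.3 and 60.3 units at 13 hpf, against 207 and 251 units at 9 hpf (-1.93 ± 0.45, limma adjusted p = 0.0165). None was called at the later 2 steps, where 6 were higher and 1 lower (18 hpf against 13 hpf) and 2 higher and 0 lower (27 hpf against 18 hpf) at an unadjusted p under 0.05. Few genes of any kind were called there: the background was 1.56% higher and 1.08% lower at 18 hpf, and 1.88% and 1.83% at 27 hpf. The SE of each gene is drawn from all stages, so the lack of a call does not show a steady level. Of the 23, 16 had a positive difference at 18 hpf against 13 hpf, and 18 at 27 hpf against 18 hpf. Their median differences were 0.77 and 0.45, against -0.01 and 0.005 over all genes. For 13 of the 23 the highest mean was at 27 hpf, as for 26.9% of all genes tested, the stage at which POU4 and the Nkx2.2-like gene were at 60.8% and 35.8% of their own highest means.

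The genes whose course was most like that of each gene were ranked by Pearson's r over the 12 stage means of log2(value + 1), among 17155 genes with a highest stage mean of at least 100 units. The 12 points follow one common developmental trend, with both genes compared in the same libraries, and high values were frequent: 314 genes had an r of at least 0.95 with POU4 and 335 with the Nkx2.2-like gene. With POU4 the highest were 2 genes that the files do not pair with a name, both at r = 0.996, one of them OFUSG17029, and then an SVEP1-like gene, a match to an extracellular matrix protein (r = 0.993). OFUSG17029 had 1903 and 2019 units at 27 hpf, against 5543 and 2883 units at 5 hpf, where its mean was highest. Among the genes with a name in the lists, six3/6 (r = 0.990), foxQ2 (0.981) and the Lhx3-like gene (0.981) were closest to POU4. six3/6 and foxQ2 are regulators of the anterior and apical region of many animal larvae.

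The Nkx2.2-like gene was most like six3/6 (r = 0.994), OFUSG17028, which again has no name in the files (0.990), and notch-like, a match to the Notch receptor (0.989). Among named genes six3/6 was followed by the Lhx3-like gene (0.983) and POU4 (0.977). Ranked among all genes, POU4 was at place 43 for the Nkx2.2-like gene, and the Nkx2.2-like gene at place 63 for POU4. six3/6 had 3666 and 1448 units at 5 hpf and 5977 and 4846 units at 9 hpf, and it was still at 4478 and 3896 units at 27 hpf, with a mean at 27 hpf that was closer to its highest than that of the Nkx2.2-like gene. foxQ2 had 223 and 224 units at 27 hpf, against 2106 and 1036 units at 5 hpf, where its mean was highest. By Spearman's rho, 0 of the 3 closest named genes of POU4 and 1 of those of the Nkx2.2-like gene were the same, and 0 of the 3 closest among all genes for either. By Pearson's r of linear stage means, 1 of the 3 closest named genes was the same for either gene. Among all genes 1 was the same for POU4 and 0 for the Nkx2.2-like gene. On that scale six3/6 was not among the 3 named genes closest to the Nkx2.2-like gene.

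The study chose its candidate genes by their response to drug treatment. From this same time course it reports that all of them rise when 4d is specified or soon after. Calls of candidate genes at 5 and 9 hpf are therefore a description, and the background beside them is no test. Of 5 genes of the apical and anterior region in the study's candidate list, 2 were called higher at 5 hpf against 4 hpf, the same step as for POU4 and the Nkx2.2-like gene (background 1.19%). The study places POU4 itself in this group, and it was left out of the count. These were six3/6 (23.1 and 3.12 units at 4 hpf, 7.85 ± 0.95, limma adjusted p = 0.000434) and foxQ2 (72.0 and 13.4 units at 4 hpf, 5.51 ± 0.86, limma adjusted p = 0.00283). In all 4 genes the 4 hpf libraries were under 80 units, while the 5 hpf libraries held at least 470 units. The other 3 genes, noggin and BAMBI, which modulate BMP and related signals, and the homeobox gene gsc, were called higher at 9 hpf against 5 hpf (background 18%). From 13 hpf on none of the 5 was called by limma in either direction (background 1.08% to 4.19% per step and direction). None had an unadjusted p under 0.05 in the later 3 steps. As each SE is drawn from all stages, this does not show steady levels. In noggin both libraries were lower at 18 hpf (441 and 411 units) than at 13 hpf (1214 and 1178 units). The level of foxQ2 went from 916 and 849 units at 9 hpf to 561 and 679 units at 13 hpf. It was lower again at 18 hpf (337 and 377 units) and 27 hpf, with libraries apart at every step. Of the 5, 2 had a positive difference at 13 hpf, 0 at 18 hpf and 1 at 27 hpf. Of 6 mesodermal genes, POU3 among them, 0 were called by limma at 5 hpf against 4 hpf (1 higher at an unadjusted p under 0.05) and 5 were called higher at 9 hpf against 5 hpf (background 18%), the largest rise being that of hand2, a bHLH gene of heart and limb in vertebrates (1655 and 1759 units at 9 hpf, against 2.08 and 5.39 units at 5 hpf, 8.59 ± 0.63, limma adjusted p = 1.77e-07). At 13 hpf 1 of the 6, twist, was called higher than at 9 hpf (limma adjusted p = 0.0465, background 4.19% higher), and 0 were after TMM scaling. At 27 hpf foxH, a forkhead gene printed as foxx1 in the candidate list, had 1.43 and 1.92 units, against 31.8 and 127 units at 18 hpf (-4.60 ± 0.90, limma adjusted p = 0.00735, background 1.83% lower).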

How the data were processed

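RNA-seq of 24 libraries (12 stages, 2 replicates) was deposited as 1 table, in which the authors give for every transcript a normalised expression signal in each library, on an arbitrary scale. The submitters' processing notes list kallisto 0.46.2, DESeq2 1.30.1 and R 3.6 without roles, and the build behind the time course values is not given in the sources used here. For its own drug-treated libraries the study names the published O. fusiformis genome annotation. The sums over 31903 transcripts were between 31696498 and 39433145 per library. Depth was estimated from the spacing of low values, which gives the worth of 1 read, at 22.4 to 37.2 M reads (median 27.7 M). Whole reads could not be recovered for nearly all genes, so no count test was run. A further 3 columns of per-sample values match no sample label and were not used, nor were the 2 ATAC-seq peak files, since the identifiers carry no positions here and matched no entry of the reference gene table.

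Transcripts were summed to 26966 genes. Genes that reached 10 units in 2 or more libraries (23934) entered a limma 3.58.1 fit of log2(value + 1) under R 4.3.3 (variance trend, stage as the only factor, all 24 libraries), with Benjamini-Hochberg adjustment over all genes at 0.05. The same script was tested on simulated data. TMM scaling was computed on the deposited values (scales 0.902 to 1.21). Differences are on the log2(value + 1) scale, which understates those of low genes. Python 3.11.15 with pandas 2.3.3 and numpy 2.4.6 served for all tables.

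Members and gene lists were chosen with earlier results of these data known. Names are best protein matches in the study's tables. For each list and comparison, up to 2 called genes with the largest rise and 2 with the largest fall were named, and for each homeobox gene the 3 genes most like it. The Tbr1-like, Foxb1-like and Gata2/3-like genes, POU3, the Scrt1-like, Nkx3.2-like and Six4-like genes were also singled out after their values were seen where they fall outside this rule. So were the early levels of the Hmx3-like and Lhx3-like genes and the late levels of noggin and foxQ2. Alternatives were TMM scaling, no filter, pseudocounts of 0.1 and 10, no variance trend, a fit of only 2 stages, a block for replicate number, omission of single libraries, the most abundant transcript, and other measures of likeness.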

Additional observations from a re-analysis of the deposited data

How the results depend on the processing

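The fitted differences of POU4 and the Nkx2.2-like gene and the counts of called neural factors were recomputed. Of 180 values, 155 stayed within the limits set for them. A difference had to keep its sign and shift by less than the gene's fitted SD, and a count to stay within a set ratio. Many differences could not move, being differences of stage means. Dropping the filter or the variance trend, fitting only the 2 stages or adding a block left them unchanged. So did the most abundant transcript for POU4, which has a single transcript. The 155 therefore overstate how steady the differences were. The difference of the Nkx2.2-like gene at 5 hpf against 4 hpf was 6.15 with a pseudocount of 10 and 6.34 to 9.10 with a replicate left out. The count of neural factors called there was 1 with a pseudocount of 0.1, 0 with only the libraries of the 2 stages, and 1 to 2 with a replicate left out. At 13 hpf against 9 hpf the count was 6 (3 higher) with a pseudocount of 10, 1 without the variance trend, and 0 to 2 with a replicate left out. At 18 hpf against 13 hpf it was 4 with a pseudocount of 10 and 4 with only the libraries of the 2 stages (1 higher each). At 27 hpf against 18 hpf it was 1 with a pseudocount of 0.1, 1 with only the libraries of the 2 stages, and 0 to 2 with a replicate left out. With a replicate left out, the small differences of POU4 changed sign at 13 hpf against 9 hpf (-0.12 to 0.65) and at 18 hpf against 13 hpf (-0.19 to 0.39), as did that of the Nkx2.2-like gene at 27 hpf against 18 hpf (-0.267 to 0.0531). The z-score of the Nkx2.2-like gene at 5 hpf was 0.88 on the log2 scale. The cause of these changes was not tested.

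By the labels, replicates have a number in common but no named parents or day. Same-numbered libraries deviated together in many stages, with a correlation over 0.1 in 57 of 66 pairs of stages (0.039 to 0.692), 0.566 between 4 and 5 hpf and 0.314 between 5 and 9 hpf. For the later steps the correlation was 0.471 (13 hpf against 9 hpf), 0.457 (18 hpf against 13 hpf) and 0.422 (27 hpf against 18 hpf). The pairs at or under 0.1 each join a stage up to 3 hpf to 18 or 27 hpf. No such pair was compared, so they give no reason to leave the pairing out of the steps tested. The main fit has no block, and its calls do not take the pairing into account. With the replicate number as a block, the number of neural factors called at 18 hpf against 13 hpf was 2, against 1 without it. Over all genes the block gave more calls in both directions at every step. At 5 hpf against 4 hpf the count was 473 higher and 76 lower, against 286 and 19 without it. At 18 hpf against 13 hpf it was 885 higher and 668 lower, against 373 and 258. Of the 23 neuronal effector genes, with the block 0 were called higher and 1 lower at 5 hpf, 13 higher at 9 hpf, 4 higher and 1 lower at 13 hpf, 2 higher at 18 hpf and 1 higher at 27 hpf. Of the 16 neural factors 1 was called higher at 13 hpf. Levels at and before 4 hpf rest on at most about 16 reads per library for either gene, and depth limits what can be said of them.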

Other observations

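OFUSG17029 and OFUSG17028, which rank with POU4 and the Nkx2.2-like gene by likeness, carry consecutive identifiers, and the files pair neither with a name. OFUSG17028 had 4636 and 2420 units at 5 hpf, against 77.4 and 34.9 units at 4 hpf, and stood highest at 9 hpf with 8827 and 8939 units. OFUSG17029 had 5543 and 2883 units at 5 hpf, against 66.9 and 21.6 units at 4 hpf. Whether they lie next to each other in the genome could not be checked here.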
